A study of Mus musculus with 33 samples.

Results

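The replication-dependent histone genes of the mouse were followed in rRNA-depleted total RNA of sorted mammary epithelial cells. Members were the protein-coding rows of the count table whose symbol belongs to a linker (H1) or core (H2A, H2B, H3, H4) histone of the replication-dependent clusters and that held at least 10 reads summed over the 33 libraries. By this rule 61 of 55487 genes were members, namely 6 H1, 16 H2A, 16 H2B, 11 H3 and 12 H4 genes. H3c14, H2ac1 and H2bc1 held fewer reads (0, 2 and 9) and were left out, and the members with the fewest reads were Hist1h2ap (55) and H1f6 (165). Of the members, 52 lie in the Hist1 cluster on chromosome 13 (21715763 to 23764406, GRCm38) and 9 in the Hist2 cluster on chromosome 3 (96219865 to 96270132), and 56 are annotated with a single exon.

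Each library came from 1 FVB mouse. Tumor mice carried MMTV-PyMT, MMTV-Cre, the ROSA mTmG reporter and either Pthrp wt/wt (PTHrP WT) or Pthrp flox/flox (PTHrP KO), and tumor-free mice carried the same alleles without PyMT, so that controls too carried Cre and the reporter. PTHrP WT tumors were taken at weeks 6, 8 and 10 (3 mice each) and 12 (1 mouse), and PTHrP KO tumors at weeks 8, 10 and 12 (3 mice each). Tumor-free glands were taken from 2 mice per age, at weeks 6, 8, 10 and 12 for PTHrP WT and at weeks 8, 10 and 12 for PTHrP KO. The authors call weeks 6, 8 and 10 of PTHrP WT tumors, and weeks 8, 10 and 12 of PTHrP KO tumors, hyperplasia, adenoma and carcinoma. MMTV drives both PyMT and Cre in mammary epithelium, and GFP marks the cells in which Cre was active. Cells were put in culture before GFP+ cells were sorted, so that histone RNA was measured in cultured cells and not in cells fresh from the tissue.

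Replication-dependent histone genes supply the histones that package newly copied DNA, and their mRNAs are made and kept almost only during S phase. Core histones H2A, H2B, H3 and H4 form the nucleosome, and linker histone H1 binds the DNA between nucleosomes. Most of these mRNAs end in a conserved stem-loop in place of a poly(A) tail. The stem-loop is bound by the stem-loop binding protein SLBP, and the U7 snRNP, whose parts include Lsm10 and Lsm11, directs the cut after it. Libraries that start from poly(A) RNA lose these transcripts, whereas rRNA-depleted total RNA counts them.

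The stem-loop was searched in the transcripts of Gencode M21 because it is what sets these mRNAs apart. It was found after the stop codon in 40 of the 61 members, and in 38 of the 44 members with at least 60 annotated bases after the stop codon. It began 21 to 58 bases after the stop codon (median 31). In other coding genes the whole transcript was searched, a wider search, and 90 of 21840 (0.412%) held a match. One site each of H1, H2A, H2B and H3, and both kinds of H4 stem, are shown 5′ to 3′, as DNA, with both arms of the stem in capitals and with 5 flanking bases on either side.
H1f4: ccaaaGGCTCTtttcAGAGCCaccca
H2ac4: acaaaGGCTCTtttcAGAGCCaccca
H2bc3: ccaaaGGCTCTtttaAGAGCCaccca
H3c2: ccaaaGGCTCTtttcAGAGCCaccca
H4c4: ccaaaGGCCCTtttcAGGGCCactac
H4c2: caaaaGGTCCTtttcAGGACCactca
All 30 stems of H1, H2A, H2B and H3 genes carried GGCTCT on the first arm, whereas the H4 genes carried GGCCCT (8 genes) or GGTCCT (2 genes). In 15 members the annotated transcript ran on for more than 300 bases past the loop (1153 bases in H1f4 and 770 in H4c4).

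Promoters of the members (RefSeq, GRCm38.p6, 250 bases before to 50 after the start) were matched for 48 members, which hold 49 promoters. The 2 stretches of 120 bases shown 5′ to 3′ end at the base before the annotated start, and were picked from the H2B and H1 classes because these differ in the octamer. Capitals mark the CCAAT box, the TATA box (searched as TATAA) and the octamer (searched as ATTTGCAT). The H2bc3 stretch is chr13:23746614-23746733 and the H1f1 stretch chr13:23763548-23763667, both on the plus strand.
H2bc3: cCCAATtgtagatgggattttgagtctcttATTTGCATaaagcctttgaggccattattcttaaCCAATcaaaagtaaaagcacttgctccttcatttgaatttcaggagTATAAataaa
H1f1: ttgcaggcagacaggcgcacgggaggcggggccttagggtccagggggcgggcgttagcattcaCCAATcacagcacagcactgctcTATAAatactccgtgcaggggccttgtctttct
On either strand, CCAAT was present in 87.8% of the members' promoters against 37.4% of all 32851 promoters, and TATAA in 75.5% against 24.9%. CCAAT was in every H1, H2A, H2B and H3 promoter of the table but in only 3 of 9 H4 promoters. The octamer was present in 22.4% of the members' promoters against 1.74% of all, in 6 of 12 H2B and 5 of 13 H2A promoters and in none of H1, H3 or H4. TTTCGCGC was in 14.3% against 0.323%, and TTTGGCGC in 0 of 49 against 0.514%. Some H2A and H2B promoters overlap on the map, so that the same site counts for both promoters of a pair. This holds for TTTCGCGC in H2ac7 and H2bc7, in H2ac11 and H2bc11, and in H2ac12 and H2bc12. It also holds for the octamer in H2ac8 and H2bc8, and in H2ac12 and H2bc12. A match is a run of letters and was not tested as a binding site.

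Libraries held 28419983 to 130981596 counted reads (median 46351179), of which 0.0497 to 0.256% were histone reads, with the number of reads limiting the precision of the rare members. Values are CPM, that is counts scaled to library size with TMM factors. The share of rRNA reads was at most 0.447% in PTHrP WT libraries but reached 18.8% in PTHrP KO libraries. Shares over 1% were thus found in PTHrP KO libraries only, while other PTHrP KO libraries held as little as 0.00331%. Pthlh, which encodes PTHrP, was at 1.35 to 2.29 CPM in PTHrP KO tumors, 1.46 to 6.67 in PTHrP WT tumors, 2.79 to 8.52 in PTHrP KO glands and 2.93 to 7.73 in PTHrP WT glands. Counts are per gene and Cre removes 1 exon, so these ranges do not check the genotype. Summed luminal keratins and other luminal markers were at 4424 to 12196 CPM, the 6 basal markers at 906 to 15837 CPM, the 6 fibroblast markers at 730 to 4954 CPM, the 5 macrophage markers at 6.14 to 44.8 CPM, the 5 adipocyte markers at 0.0146 to 2.83 CPM, the 5 lymphocyte markers at 0.0146 to 11.3 CPM and the 5 endothelial markers at 0.363 to 11.7 CPM.

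Per kilobase of coding sequence the most abundant members were H1f4 (339 CPM per kb, mean of 33 libraries), H4c4 (315), H1f2 (288), H1f3 (164) and H4c8 (145). The median over the members of a class was 137 CPM per kb for H1, 49.0 for H4, 35.7 for H2B, 34.1 for H3 and 7.88 for H2A. Coding length leaves out the long annotated 3′ ends of some members, whose reads are counted. As a share of histone reads, not corrected for length, H1 held 43.6%, H4 18.7%, H2B 18.2%, H3 13.1% and H2A 6.41%, and 4 genes (H1f4, H1f2, H1f3 and H4c4) held 42.1% of the total. There were 6 members under a mean of 1 CPM.

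Members share sequence, which limits how far single core genes can be told apart. A median of 57.0% of the 50-base windows of a member was also present in another gene (median of 82.3% for H2A, 60.4% for H3, 57.4% for H2B and 39.9% for H4 genes), and 12 members shared more than 90%. H2ac12 shared 92.1% of its windows, with 48 genes. H2bc18 shared 100%, but with only 2 genes, and Gm20628 and Gm42743 overlap it on the map. Windows shared with a gene that overlaps a member, on either strand, count in these shares too. H1f4 overlaps the H2B gene annotated as Hist1h2be on the map. Every H2A member, H2bc18, H3c13 and H4c2 overlap a gene on the other strand. Whether the counting used strand is not given in the sources used here, so reads of such pairs cannot be told apart. Values of single core histone genes of all 4 classes are uncertain for this reason.

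Histone RNA varied 5.01-fold between libraries in its sum over members. The summed level in PTHrP WT tumors was 1630, 2362 and 1873 CPM at week 6, 1862, 1275 and 1407 at week 8, 925, 936 and 2458 at week 10, and 1159 in the single tumor of week 12. PTHrP WT glands held 895 and 872 CPM at week 6, 1177 and 1058 at week 8, 1599 and 686 at week 10, and 1587 and 908 at week 12. The 3 tumors of week 6 all lay above every PTHrP WT gland, whereas at week 10 the tumor and gland ranges overlapped. In PTHrP KO tumors the sum was 1220, 771 and 960 CPM at week 8, 1471, 1507 and 1944 at week 10, and 1743, 1544 and 1520 at week 12. PTHrP KO glands held 837 and 680 CPM at week 8, 2544 and 1457 at week 10, and 1694 and 3406 at week 12. PTHrP KO glands thus held both the lowest and the highest library of the series. In bulk RNA of sorted cells, fewer cells in S phase and less histone RNA per cell cannot be told apart.

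**Figure D1:**
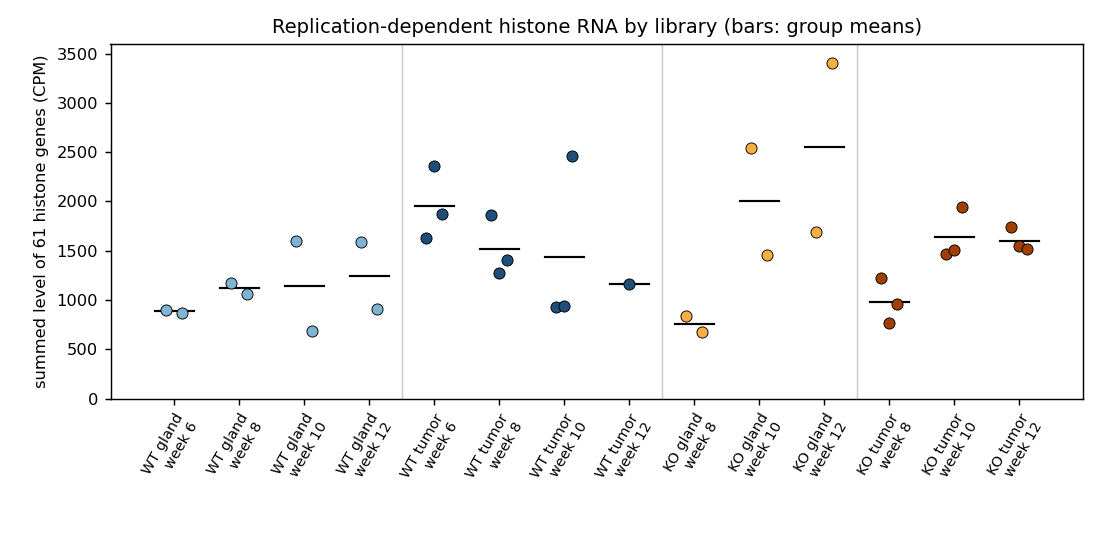
Summed level of the 61 histone genes (CPM, linear axis) in each of the 33 libraries, 1 point per mouse, grouped by genotype, tissue and week, with bars at the group means. The 3 PTHrP WT tumors of week 6 (1630 to 2362 CPM) lie above the PTHrP WT glands of the same week (872 and 895 CPM), and the week 12 PTHrP KO glands spread from 1694 to 3406 CPM.

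Most members followed 1 pattern across libraries. For each member, its level was compared with the sum of the other members by Spearman's rho over the 33 libraries, as a description, since libraries of a group and shared reads tie the points together. The median rho was 0.927 and 48 of 61 members were over 0.8. H2ac19, H2bc21, H3c15 and H1f6, named after their values were seen, were the 4 members with a rho below 0 (lowest −0.192 for H2ac19). All 4 were rare, with a mean of 0.753, 1.02, 1.45 and 0.108 CPM, and H2ac19 shared 100% of its windows. H2bc21, an H2B gene with 2192 annotated bases after the stop codon and no stem-loop found there, stayed between 0.515 and 1.59 CPM in all libraries.

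**Figure D2:**
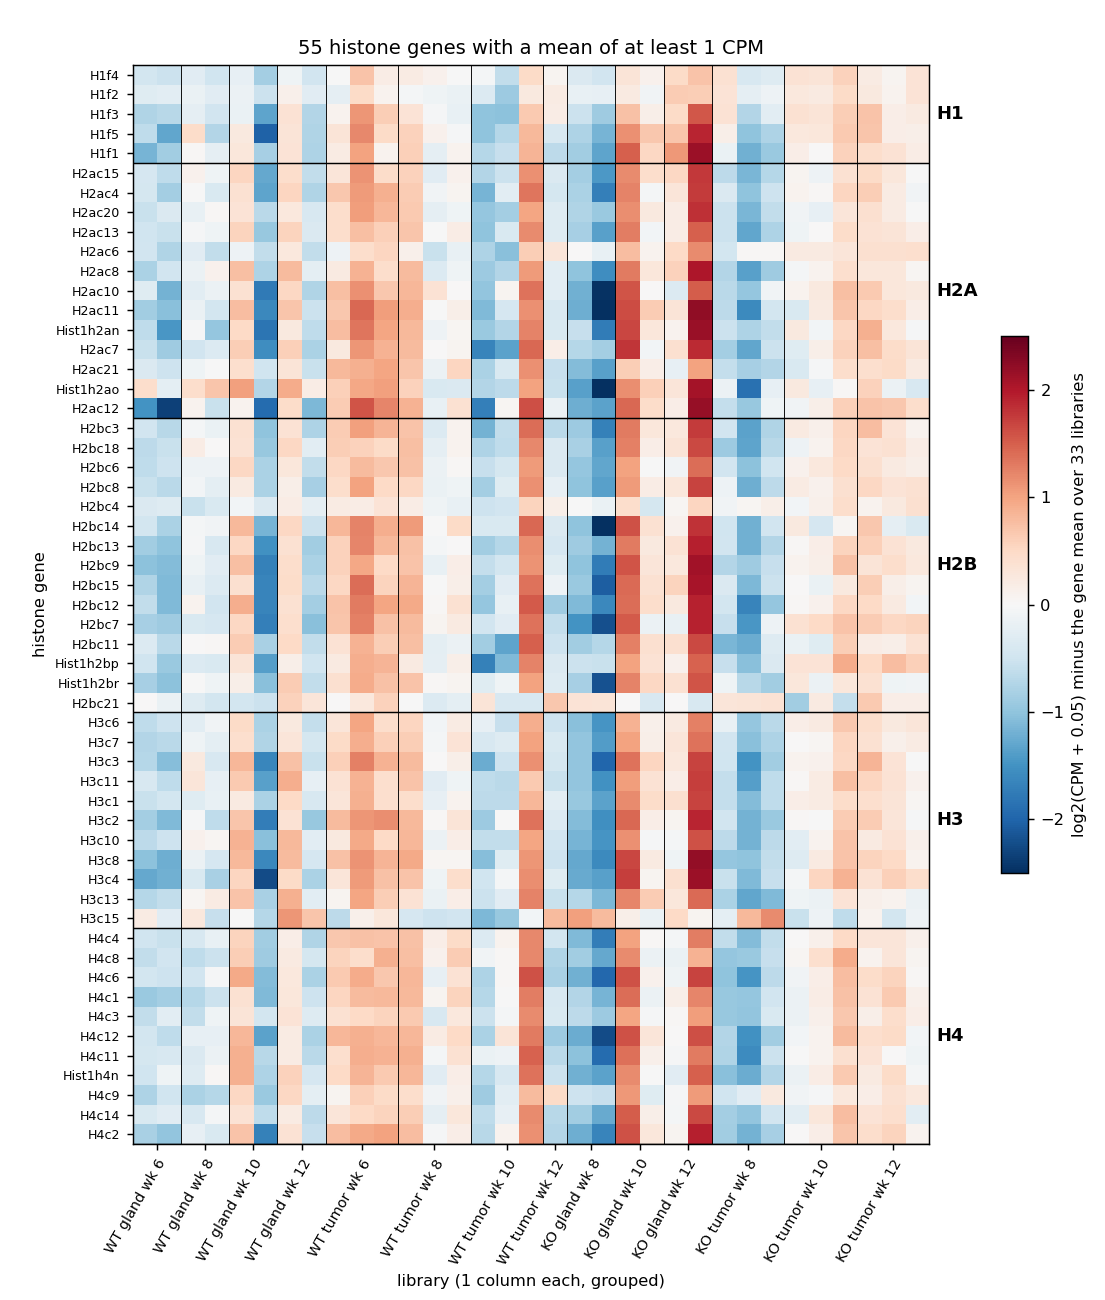
Level of the 55 members with a mean of at least 1 CPM (rows, by class and falling mean) in the 33 libraries (columns, by group), as log2(CPM + 0.05) minus the mean of the gene, red above and blue below the mean. Most rows change together within a column, and the second PTHrP KO gland of week 12 held the highest level of 44 of the 61 members and the second PTHrP KO gland of week 8 the lowest level of 33.

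The comparison of hyperplastic PTHrP WT tumors with tumor-free glands at week 6 asks which genes the oncogene-bearing epithelium uses at its earliest stage. Histone genes of all 5 classes were higher in these tumors. Of 61 members 15 rose and 0 fell (fold change over 1.5 and edgeR adjusted p under 0.1 over all genes), while 2.32% of all genes tested were called higher and 3.53% lower. The sign was positive in 58 members, 49 had an unadjusted p under 0.05, and the median log2 fold change was 1.25 against 0 over all 36527 genes. In 53 of 61 members all 3 tumors lay above both glands, against 13.9% of all genes. The 15 called members were 3 H1, 2 H2A, 4 H2B, 4 H3 and 2 H4 genes, all of Hist1, with folds of 1.77 to 9.41 and adjusted p of 0.0204 to 0.0987.

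Among the linker histones, H1f4 was at 156 and 148 CPM in glands and 214, 351 and 244 CPM in tumors of week 6, and rose by 0.82 ± 0.26 (log2, SE; adjusted p = 0.0692). H1f1 was at 16.9 and 20.7 CPM in glands against 43.5, 75.9 and 40.1 CPM in tumors (1.5 ± 0.47, adjusted p = 0.069). H1f3, named like H1f5 and H2bc4 after its values were seen, rose from 57.7 and 60.4 CPM to 104, 212 and 149 CPM (1.39 ± 0.46, adjusted p = 0.0886). H1f2 was at 144 and 149 CPM in glands and 153, 248 and 191 CPM in tumors, and its difference of 0.43 ± 0.23 did not pass the test (adjusted p = 0.383). The tumors lay above both glands for all 4 H1 genes, by the smallest margin for H1f2.

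H3 is a core histone that pairs with H4, and 4 of its 11 genes rose. H3c7 was at 22.1 and 23.1 CPM in glands and at 51.0, 68.8 and 55.5 CPM in tumors (1.37 ± 0.39, adjusted p = 0.0442). H3c2 stood at 6.34 and 5.30 CPM against 19.9, 24.8 and 25.7 CPM (2.01 ± 0.63, adjusted p = 0.0727). H3c8 (3.37 and 2.97 against 11.6, 15.3 and 12.5 CPM, 2.05 ± 0.66) and H3c4 (2.04 and 2.13 against 6.20, 10.5 and 8.36 CPM, 2.00 ± 0.64) also rose. No tumor value of these 4 genes reached down to a gland value. H3c6, the other abundant H3 gene, differed by 1.18 ± 0.40 and missed the threshold (adjusted p = 0.102).

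H4 genes are encoded by many copies of nearly the same coding sequence. H4c4, the most abundant, was at 61.6 and 59.6 CPM in glands and 139, 145 and 144 CPM in tumors, a difference of 1.23 ± 0.42 that missed the threshold (adjusted p = 0.105). H4c2 rose from 5.07 and 4.50 CPM to 15.5, 17.4 and 18.1 CPM (1.83 ± 0.57, adjusted p = 0.0719). Values of H4c8 were 26.0 and 28.6 CPM against 58.7, 54.4 and 74.4 CPM (1.19 ± 0.42, adjusted p = 0.121). Replicate tumors agreed more closely for H4c4 than for H1f4 or H1f1.

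H2A pairs with H2B in the nucleosome, and the largest called folds were those of H2A genes at low levels. H2ac12, an H2A gene of few reads, was at 0.430 and 0.219 CPM in glands and 2.03, 3.98 and 3.11 CPM in tumors (3.23 ± 0.81, adjusted p = 0.0204), a 9.41-fold rise in a gene that shares most of its windows. H2ac11 rose from 1.36 and 1.2 CPM to 4.08, 6.93 and 5.28 CPM (2.08 ± 0.69, adjusted p = 0.0945). The more abundant H2ac4 (11.9 and 8.98 against 25.9, 34.1 and 30.1 CPM) and H2ac15 (13.4 and 11.6 against 22.3, 39.4 and 24.8 CPM) did not pass the test (adjusted p = 0.16 and 0.219). Of the H2B genes, H2bc15 (1.81 ± 0.60), H2bc9 (1.76 ± 0.59) and Hist1h2br (1.71 ± 0.52) rose, with 5.88 and 4.65 CPM in glands against 14.3, 26.5 and 14.6 CPM in tumors for H2bc15. H2bc3, whose octamer-bearing promoter is shown above, was at 28.5 and 24.8 CPM against 62.0, 81.0 and 71.9 CPM (1.43 ± 0.57, adjusted p = 0.19). All tumor values of these H2A and H2B genes lay above the gland values.

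**Figure D3:**
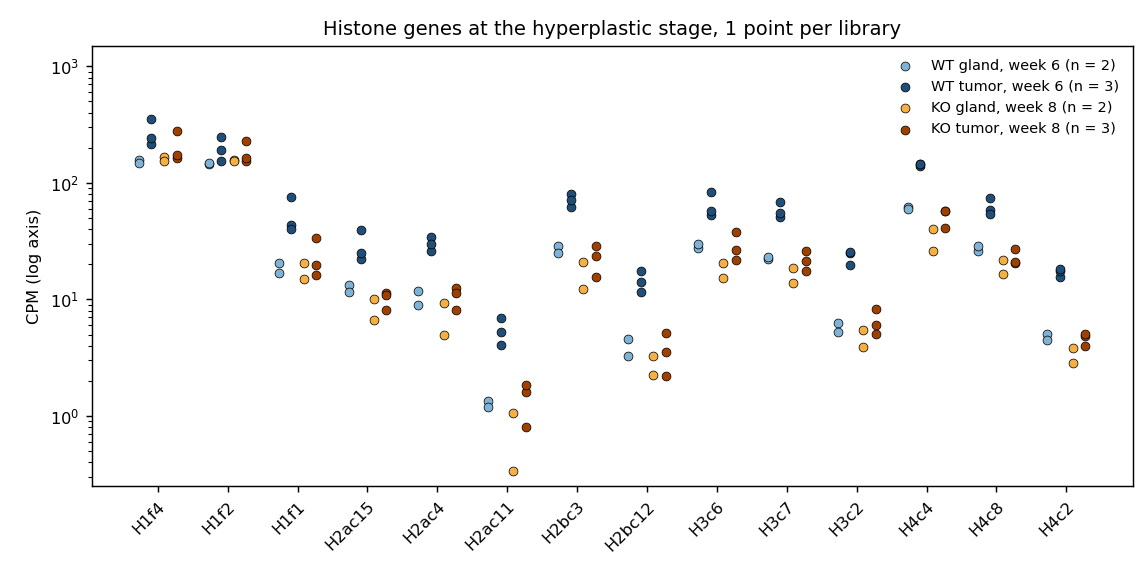
Level (CPM, log axis) of 14 histone genes in the 4 groups that bear on the hyperplastic stage, 1 point per library: PTHrP WT glands (n = 2) and tumors (n = 3) of week 6, PTHrP KO glands (n = 2) and tumors (n = 3) of week 8. H3c7 stands at 51.0 to 68.8 CPM in the PTHrP WT tumors and at or below 26.2 CPM in the other groups, whereas the H1f2 points of all 4 groups lie between 144 and 248 CPM.

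How many members pass rests on single libraries and on the fit. The count fell from 15 to 6, 1 and 4 without the first, the second or the third tumor. Leaving out a gland leaves 1 gland, with the spread taken from other groups, so only its median is read. The median stayed between 1.15 and 1.4 when any 1 of these tumors or glands was left out. The count rose to 38 with DESeq2, 26 with a stricter filter on low counts, 45 without a filter and 51 with only these 5 libraries in the fit. The share of all genes called by these fits is not given here, so the rise is not read as particular to histone genes. In the same comparison 3 of 6 basal markers fell in tumors (summed 2867 to 3116 CPM in tumors and 7195 to 8892 CPM in glands), and summed fibroblast markers were lower (0 of 6 called, 1558 to 3330 against 4737 to 4954 CPM). Their part in the histone result was not tested.

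Genes of DNA replication and mitosis rose alongside. Of 40 genes of S phase and DNA replication, 21 rose and 0 fell (median log2 fold change 1.05), among them Ccna2 (2.10), the S phase cyclin A, Ccne2 (1.92), Mcm10 (1.86) and Tk1 (1.84), thymidine kinase. Of 10 mitosis genes 8 rose (median 2.06), among them Ccnb2 (2.31) and Ccnb1 (2.17). Histone chaperones hand new histones to DNA, and 3 of 14 rose: Asf1b (1.57), Chaf1a (1.27), the large subunit of CAF-1, and Nasp (0.95), which holds H3 and H4. Of 16 genes listed for the transcription and the 3′ end of histone mRNA, 1 was called (12 positive, 4 at an unadjusted p under 0.05, median 0.11), beside 2.32% of all genes called higher. Slbp was at 43.8 and 39.6 CPM in glands and 54.5, 64.7 and 56.2 CPM in tumors (0.49 ± 0.18, adjusted p = 0.148), and Npat, the coactivator of histone genes, at 56.2 and 62.0 against 63.9, 64.9 and 62.5 CPM (0.11 ± 0.11). Zfp473, the ZFP100 protein that joins the U7 snRNP, was the member of that list that rose, from 0.95 and 0.82 CPM to 3.93, 3.89 and 3.40 CPM (2.08 ± 0.45, adjusted p = 0.00727). Of 10 other short RNAs without poly(A), only Rny1 rose (2.31).

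Over all 33 libraries the summed histone level followed the summed S phase list (Spearman's rho 0.865) and the summed mitosis list (0.876), and did so within groups as well (Pearson's r of log2 values after removing group means 0.832 and 0.779). The same figures were 0.342 and 0.310 for the short RNAs without poly(A), and 0.113 and 0.0762 for the rRNA share. Library preparation and group are shared by these points, so the values are descriptions. Histone CPM per CPM of the S phase list ranged from 0.649 to 1.27.

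**Figure D4:**
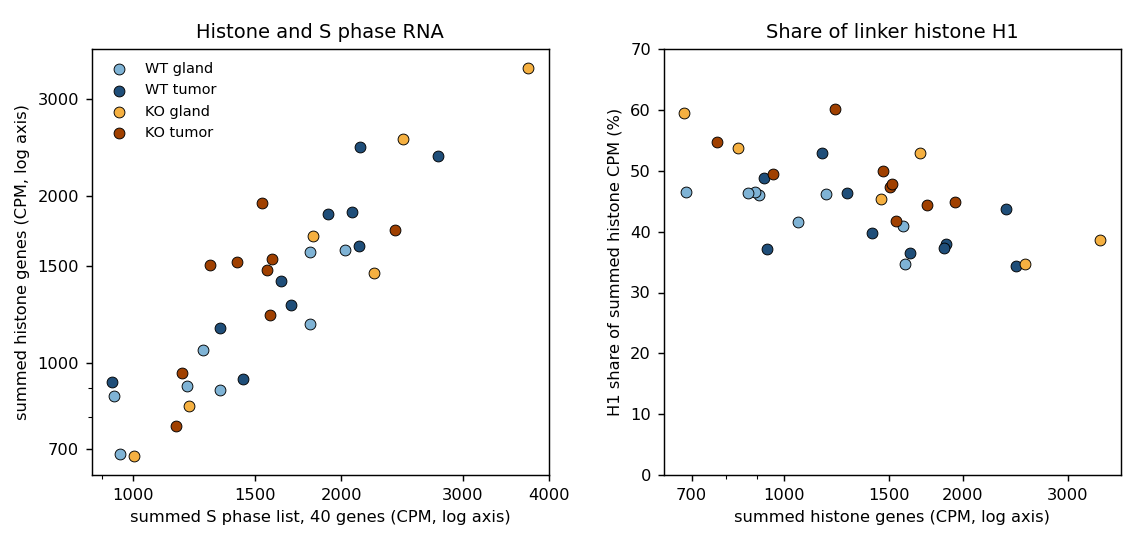
Left, summed level of the 61 histone genes against the summed level of 40 S phase genes (CPM, log axes), 1 point per library, colored by genotype and tissue. Right, share of H1 in the summed histone CPM (%, linear axis from 0) against the summed histone level (log axis). Tumors and glands of both genotypes lie along 1 band on the left (Spearman's rho 0.865, n = 33), and the H1 share on the right runs from 60.1% down to 34.4%.

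In the later PTHrP WT comparisons the members kept a mostly positive sign but 0 of 61 passed the test of the main edgeR fit. At week 8 some members passed in other edgeR fits, as given at the end. Over all genes tested, the median log2 fold change of each comparison given here lay between −0.10 (PTHrP KO tumors of week 12 against 8) and 0.14 (PTHrP WT against PTHrP KO glands). At week 8 the median was 0.43 (55 positive, 3 at an unadjusted p under 0.05, 1 called by DESeq2, 0 by limma), with 3.35% of all genes called higher and 5.84% lower. At week 10 it was 0.30 (52 positive, 0 at an unadjusted p under 0.05, 0 called by DESeq2 and limma), with 2.46% and 3.67% of all genes called. H4c4 at week 8 was at 66.0 and 77.2 CPM in glands and 145, 97.8 and 122 CPM in tumors (0.77 ± 0.41, adjusted p = 0.341). H1f4 at week 10 was at 186 and 120 CPM in glands and 209, 141 and 301 CPM in tumors (0.51 ± 0.25, adjusted p = 0.343). The sign at week 10 was set by single libraries, as the median was 1.19 without the first gland, −0.28 without the second gland and −0.52 without the third tumor. Without the second tumor 1 member was called higher. At week 8, 5 of 6 basal markers (summed 8015 and 15837 CPM in glands and 2014 to 2257 CPM in tumors), 4 of 6 fibroblast markers (3458 and 4342 against 1001 to 1597 CPM), 1 of 5 adipocyte and 1 of 5 macrophage markers fell. At week 10, 3 of 6 basal markers fell (4386 and 9551 against 1692 to 2963 CPM). Their part in the histone values of weeks 8 and 10 was not tested.

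In PTHrP KO tumors of week 8, the hyperplastic stage of that genotype, 0 of 61 members were called (median 0.39, 49 positive, 2 at an unadjusted p under 0.05, 1 called lower by DESeq2 and 1 higher by limma), with 1.11% of all genes called higher and 1.38% lower. H3c7 was at 18.5 and 13.9 CPM in PTHrP KO glands and 26.2, 17.7 and 21.5 CPM in PTHrP KO tumors (0.42 ± 0.38, adjusted p = 0.745). Without the first tumor 1 member was called lower. H4c4 was at 40.6 and 26.2 CPM against 57.2, 41 and 57.2 CPM (0.63 ± 0.41, adjusted p = 0.659). Gland and tumor values overlapped for H3c7 and were separate by a narrow margin for H4c4. Of the basal markers 1 of 6 fell (summed 7124 and 9613 CPM in glands and 1383 to 4554 CPM in tumors), and its part was not tested. The tumor effect at the hyperplastic stage was larger in PTHrP WT than in PTHrP KO for 59 of 61 members by sign (median difference 0.93 on the log2 scale). That difference passed edgeR's test for 0 of 61 members (5 at an unadjusted p under 0.05, 0 by DESeq2 and limma), as for 0% of all genes in either direction, so the tumor effects were not shown to differ.

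At weeks 10 and 12 the sign turned, with histone levels lower in PTHrP KO tumors than in their glands for most members. At week 10 the median was −0.59 and 0 members were called (7 positive, 2 at an unadjusted p under 0.05, 0 by DESeq2 and limma), with 2.57% of all genes called higher and 3.09% lower. At week 12 the median was −0.73 and 1 member, H1f1, fell (5 positive, 11 at an unadjusted p under 0.05, 5 called by DESeq2), with 3.19% and 2.92% of all genes called. H1f1 was at 79.3 and 165 CPM in glands and 51.0, 48.5 and 42.9 CPM in tumors (−1.36 ± 0.43, adjusted p = 0.0715). Single glands set these signs. Without the first PTHrP KO gland the week 10 median was 0.05, and without the second PTHrP KO gland, whose rRNA share was 18.8%, the week 12 median was 0.18. The week 12 count was 2 without the first tumor, and 0 without the second or the third tumor. Of the basal markers in the same comparisons, 3 of 6 fell at week 10 (summed 6638 and 11989 CPM in glands and 2370 to 3661 CPM in tumors) and 4 of 6 at week 12 (15162 and 4808 against 1852 to 2228 CPM). At week 10, 3 of 5 lymphocyte markers fell too (summed 0.204 and 11.3 CPM in glands and 0.0287 to 0.359 CPM in tumors), as did 1 of 5 endothelial markers (summed 11.7 and 2.47 against 0.459 to 3.30 CPM) and 1 of 5 adipocyte markers (summed 2.83 and 0.488 against 0.0574 to 0.512 CPM), and the rRNA share was 8.04 and 4.35% in glands and 0.0045 to 2.51% in tumors. At week 12 the other gland held 0.0362% rRNA and the tumors at most 0.952%. The part of these markers and of the rRNA share in the histone result was not tested.

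**Figure D5:**
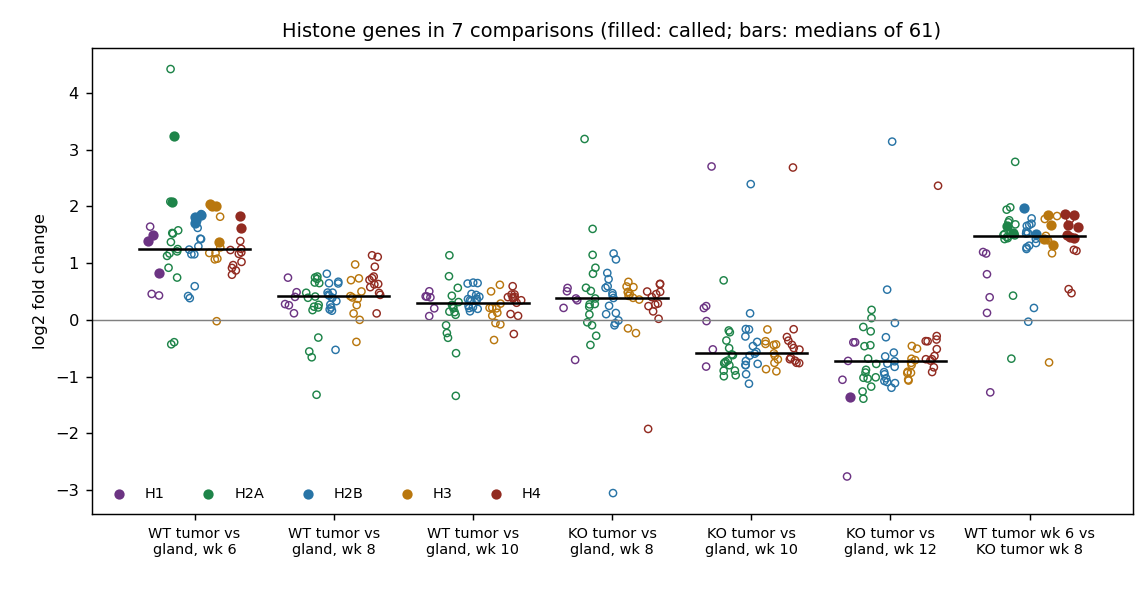
Log2 fold change of each of the 61 histone genes in 7 comparisons, colored by class, filled where called and open where not, with a bar at the median of the 61. The medians are 1.25, 0.43 and 0.30 for PTHrP WT tumors against glands at weeks 6, 8 and 10, 0.39, −0.59 and −0.73 for PTHrP KO tumors at weeks 8, 10 and 12, and 1.48 for PTHrP WT tumors of week 6 against PTHrP KO tumors of week 8.

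Averaged over the 6 tumor against gland comparisons, the members moved little. The median was 0.23 and 1 of 61 was called, H2ac12 (0.69 ± 0.29, adjusted p = 0.0976), while 6.69% of all genes were called higher and 8.23% lower. In the same mean 6 of 6 basal (median −1.97), 2 of 6 fibroblast, 2 of 5 macrophage, 1 of 5 adipocyte, 1 of 5 lymphocyte and 1 of 5 endothelial markers fell, and their part was not tested. H1f4 had a smaller adjusted p (0.0192) but a log2 difference of 0.33 ± 0.10, under the fold threshold. The H2ac12 call was lost with both other scalings, and the number of members called ran from 0 to 6 when single libraries were left out. Of 11 replacement histones and histone variants, most of which are not tied to S phase, 2 were called higher (H2az2 and Cenpa, the centromeric H3) and 2 lower (Macroh2a2 and H1f10) in that mean, with 8 positive and a median of 0.20. Macroh2a2, a macroH2A, was lower in tumors in each of the 6 comparisons (−1.88 to −2.17), with 8.08 to 24.5 CPM in all glands and 1.82 to 6.78 CPM in all tumors. H2az2, which encodes an H2A.Z, was called higher in 5 of the 6 (mean 0.67 ± 0.07), with 15.7 to 24.6 CPM in glands and 22.4 to 40.3 CPM in tumors. H1f10, a linker histone of this kind, fell in the 3 PTHrP WT comparisons. H2ax, the variant phosphorylated at DNA breaks, was at 44.1 and 33.5 CPM in PTHrP WT glands and 71.5, 88.6 and 70.6 CPM in PTHrP WT tumors of week 6 (0.99 ± 0.39, adjusted p = 0.182). H2ax (157 CPM) and H2az1 (289 CPM), named after their values were seen, were highest in the second PTHrP KO gland of week 12, where the summed histone level was highest too.

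Hyperplastic PTHrP WT tumors (week 6) were also set against hyperplastic PTHrP KO tumors (week 8), a comparison of the same stage at different ages that shares its PTHrP WT tumors with the week 6 comparison above. Core histone genes were higher in the PTHrP WT tumors. Of 61 members 15 rose and 0 fell, with 0.378% of all genes called higher and 1.15% lower. The median was 1.48 (−0.08 over all genes tested), 57 members were positive and 50 had an unadjusted p under 0.05. In 49 of 61 members all 3 PTHrP WT tumors lay above all 3 PTHrP KO tumors, against 9.64% of all genes. By class 7 of 12 H4, 4 of 11 H3, 2 of 16 H2A, 2 of 16 H2B and 0 of 6 H1 genes were called, 11 in Hist1 and 4 of 9 in Hist2, with folds of 2.51 to 3.93 and adjusted p of 0.061 to 0.0997.

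H4c4 was at 139, 145 and 144 CPM in the PTHrP WT tumors and 57.2, 41 and 57.2 CPM in the PTHrP KO tumors (1.46 ± 0.37, adjusted p = 0.0684). H4c8 stood at 58.7, 54.4 and 74.4 CPM against 20.5, 21 and 27.0 CPM (1.45 ± 0.37, adjusted p = 0.0684). H4c2 was at 15.5, 17.4 and 18.1 CPM against 4.90, 3.95 and 5.01 CPM (1.88 ± 0.49, adjusted p = 0.0771). All 3 genes were separate between the tumor groups. H3c7 (51.0, 68.8 and 55.5 against 26.2, 17.7 and 21.5 CPM) differed by 1.42 ± 0.34 with the lowest adjusted p of the members (0.061), and H3c2, also separate between the groups, by 1.86 ± 0.54. H2bc12 showed the largest called difference (11.5, 17.4 and 14.1 against 5.12, 2.21 and 3.57 CPM, 1.97 ± 0.57, adjusted p = 0.0942). H2bc18, of Hist2, was at 55.7, 54.3 and 50.8 against 19.4, 14.6 and 22.4 CPM (1.51 ± 0.43, adjusted p = 0.0892). The PTHrP KO tumor levels of H4c4 and H4c8 lay within the range of the tumor-free glands of both genotypes at weeks 6 and 8 (26.2 to 77.2 and 16.6 to 28.6 CPM).

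Of the linker histone genes 0 of 6 were called in that comparison, and their median was 0.60 against 1.52 for H2A, 1.52 for H2B, 1.42 for H3 and 1.48 for H4. H1f4 was at 214, 351 and 244 CPM in PTHrP WT and 278, 162 and 173 CPM in PTHrP KO tumors (0.40 ± 0.22, adjusted p = 0.43). H1f2 was at 153, 248 and 191 against 226, 153 and 163 CPM (0.12 ± 0.20, adjusted p = 0.854). The ranges of H1f4 and H1f2 overlapped between genotypes. H1f1 was at 43.5, 75.9 and 40.1 against 33.4, 16.3 and 19.7 CPM (1.2 ± 0.40, adjusted p = 0.147) and H1f5 at 79.2, 145 and 88.4 against 70.1, 31.3 and 37.3 CPM (1.17 ± 0.48, adjusted p = 0.255). These 2 genes were separate between the tumor groups, and 3 of the 6 H1 genes had an unadjusted p under 0.05. The H1 share of histone CPM was 36.5, 43.7 and 38% in PTHrP WT tumors of week 6 and 60.1, 54.8 and 49.4% in PTHrP KO tumors of week 8, without overlap. It was 46.4 and 46.3% in PTHrP WT glands of week 6 and 53.8 and 59.6% in PTHrP KO glands of week 8. Across the series the H1 share was lowest (34.4%) in the third PTHrP WT tumor of week 10.

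The number called between hyperplastic tumors depended on the libraries and on the fit. It was 29 without the first PTHrP KO tumor and 0 without any 1 of the other 5 tumors, with medians of 1.33 to 1.58. The count rose with DESeq2, limma, the replicate block, other low-count filters and a fit of the compared groups only, as given at the end. The rRNA share was 0.0057, 12.0 and 3.62% in the PTHrP KO tumors and at most 0.144% in the PTHrP WT tumors. With the rRNA share in the model 0 members were called, with a median of 1.48 and 48 at an unadjusted p under 0.05. Leaving out libraries over 1% rRNA left 1 PTHrP KO tumor of week 8, which was assumed to vary like the other groups, so the 0 calls of that fit say nothing about stability (median 1.33, 16 at an unadjusted p under 0.05). Summed basal markers were at 1383 to 4554 CPM in the PTHrP KO and 2867 to 3116 CPM in the PTHrP WT tumors (0 of 6 called). In the same comparison 3 of 40 S phase genes rose (Gins2 1.11, Pold1 0.77 and Prim2 0.76), beside 0.378% of all genes called higher, and all 40 were positive with 36 at an unadjusted p under 0.05 and a median of 0.84. Of 10 mitosis genes 0 were called (10 positive, 2 at an unadjusted p under 0.05, median 1.06).

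At matched weeks 8 and 10, PTHrP WT and PTHrP KO tumors differed in 0 of 61 members by edgeR (19 at an unadjusted p under 0.05, 4 called by DESeq2, 0 by limma), with 0.142% of all genes called higher in PTHrP WT and 0.37% lower. The median was 0.52, and −0.18 for H1 against 0.69 for H4. Without the third PTHrP WT tumor of week 10 the median was 0.07, and without the first PTHrP KO tumor of week 8 2 members were called lower. H4c4 showed 0.73 ± 0.26 (adjusted p = 0.26), with 145, 97.8 and 122 CPM in PTHrP WT and 57.2, 41 and 57.2 CPM in PTHrP KO tumors at week 8, and 68.4, 92.9 and 201 against 88.2, 95.6 and 124 CPM at week 10. The groups were thus separate at week 8 and overlapped at week 10 for this gene. Between tumor-free glands of weeks 8, 10 and 12, 0 of 61 members were called (median −0.35, 6 at an unadjusted p under 0.05, 1 by DESeq2, 0 by limma), with 0.504% of all genes called higher in PTHrP WT and 0.402% lower. Without the second PTHrP KO gland of week 12 that median was −0.06. Without the first PTHrP KO gland of week 12, 1 member was called lower, and without the first PTHrP WT gland of week 10, 3 were.

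Within a genotype most members were lower at the last than at the first stage in PTHrP WT tumors and higher in PTHrP KO tumors, by sign alone. From week 6 to 10, the PTHrP WT median was −0.46, with 1 member positive, 1 at an unadjusted p under 0.05 and 0 called by edgeR, DESeq2 or limma, against 0% of all genes called higher and 0.011% lower. The third tumor of week 10 stands apart (H2bc3 at 17.6, 26.1 and 105 CPM at week 10), and without it 9 members were called lower with a median of −1.23. From week 8 to 12, the PTHrP KO median was 1.07, with 58 members positive and 41 at an unadjusted p under 0.05. The main edgeR fit called 0 members (2 by DESeq2, 0 by limma, and some by edgeR without a low-count filter), against 0% of all genes in either direction. H4c2, for example, was at 4.90, 3.95 and 5.01 CPM at week 8 and 12.2, 13.2 and 9.48 CPM at week 12 (1.33 ± 0.49, adjusted p = 0.626), without overlap. Without the first PTHrP KO tumor of week 8, or the first of week 12, 1 member was called higher. The rRNA share was 0.0057, 12.0 and 3.62% in the tumors of week 8 and at most 0.952% in those of week 12, and summed basal markers were at 1383 to 4554 and 1852 to 2228 CPM (0 of 6 called, median −0.62, 2 at an unadjusted p under 0.05). Their part in the histone values was not tested. In PTHrP WT glands, weeks 12 and 6 differed by a median of 0.68 with 0 called (5 at an unadjusted p under 0.05, 0 by DESeq2 and limma), against 0.2% of all genes higher and 0.151% lower, and without the first gland of week 12 the median was 0.10. Of the fibroblast markers 0 of 6 were called in that comparison (median −2.90, 4 at an unadjusted p under 0.05), and their part was not tested.

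Members were also split by the length of the annotated 3′ end. The split, chosen after the values were seen and not tested, set 19 members with more than 300 annotated bases after the stop codon against 42 with fewer. In the week 6 comparison of PTHrP WT the long members had a median of 1.02 and the short ones of 1.41, and for PTHrP WT tumors of week 6 against PTHrP KO tumors of week 8 it was 1.22 and 1.53. Called higher were 6 of the 19 long and 9 of the 42 short members in the week 6 comparison, and 3 and 12 between the tumors. Among core histones alone the medians were 1.09 and 1.39, and 1.24 and 1.56. These comparisons share the PTHrP WT tumors of week 6. The long and short medians were also apart between PTHrP WT and PTHrP KO tumors of weeks 8 and 10 (0.32 and 0.59), for the difference of tumor effects (0.67 and 1.07), between PTHrP KO tumors of weeks 12 and 8 (0.90 and 1.16), between PTHrP WT glands of weeks 12 and 6 (0.51 and 0.72), and for PTHrP KO tumors against glands at week 10 (−0.30 and −0.66) and week 12 (−0.51 and −0.85). They were closer between PTHrP WT tumors of weeks 10 and 6 (−0.39 and −0.52), between PTHrP WT and PTHrP KO glands (−0.31 and −0.36), and for tumors against glands in PTHrP WT at week 8 (0.43 and 0.43) and week 10 (0.29 and 0.32), in PTHrP KO at week 8 (0.40 and 0.39) and in the mean of the 6 comparisons (0.24 and 0.23). H2bc4, an H2B gene with 742 such bases and no stem-loop found in them, was at 18.7 and 19.2 CPM in glands and 27.9, 27.5 and 30.5 CPM in PTHrP WT tumors of week 6 (0.60 ± 0.26), and at 22.8, 24.8 and 26.6 CPM in PTHrP KO tumors of week 8 (0.21 ± 0.23 between the tumors). Its range over the series was 2.15-fold, against a median of 9.34-fold over the members, 2.94-fold for H1f4 and 2.90-fold for H1f2.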

How the data were processed

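The authors sorted GFP+ cells, extracted total RNA, depleted rRNA and sequenced stranded libraries. Reads were aligned with HISAT (GRCm38, Gencode M16), duplicates were removed with Picard 1.128 and genes counted with HTSeq, and the authors deposited these raw counts and a table of normalized signal (counts divided by size factors). Removal of duplicates can lower counts of short abundant genes. The count table holds 55598 rows, of which 111 spike-in or transgene rows (0.0778% of reads) were left out.

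The 36527 genes with at least 10 reads were tested with edgeR 4.0.16 (quasi-likelihood, TMM, 1 coefficient per group, R 4.3.3) over all 33 libraries, with Benjamini-Hochberg adjustment over all of them, and a call needed both an adjusted p under 0.1 and more than a 1.5-fold difference. The SE of a gene was the size of its log2 fold change over the root of its F value. For fits that leave out 1 library, the dispersion trend of the full fit was kept. DESeq2 1.42.0 and limma 3.58.1 (on log2 of the deposited normalized signal + 1) were alternatives. Unless another fit is named, counts called by edgeR are those of the main fit, and some other edgeR fits called more members, as given below. Scripts were tested on simulated data. No pair of libraries of a group was a duplicate (25 pairs, chi-square per degree of freedom at least 37.4).

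Named genes were the 2 most abundant members per class, the 10 called most often among the 6 tumor against gland comparisons, and the 3 largest changes among those called in each comparison. H1f3, H1f5, H1f6, H2ac19, H2bc4, H2bc21, H3c15 and Hist1h2ap fall outside this rule and were named after their values were seen. H1f10 was kept with the replacement histones. The members, gene lists and rules were chosen with earlier results of these data known. Limma, the rRNA covariate and leaving out libraries over 1% rRNA were added after seeing the data.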

Additional observations from a re-analysis of the deposited data

How the results depend on the processing

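The number of members called moved with the fit, and so did the sign of the PTHrP KO week 12 median, given below. The share of all genes called by each alternative fit is not given here, so these counts are not read as particular to histone genes. With DESeq2, a stricter low-count filter (filterByExpr), no filter and only the compared groups, the week 6 PTHrP WT count of 15 became 38, 26, 45 and 51, and the count of 15 between hyperplastic tumors became 47, 35, 45 and 47. The latter became 24 with limma, 29 with the replicate block, and 0 with the rRNA covariate. It was also 0 without libraries over 1% rRNA, a fit that leaves 1 PTHrP KO tumor of week 8 and so says nothing about stability. In the same order, PTHrP WT week 8 (0) became 1, 1, 2 and 6, and 1 without rRNA-rich libraries. PTHrP KO week 8 (0) became 1 with DESeq2, no filter or limma. PTHrP KO week 10 (0) became 2 with no filter and 5 with compared groups. PTHrP KO week 12 (1) became 5, 3, 7 and 0, 2 with the replicate block, and 0 (median 0.15) without rRNA-rich libraries, which leaves 1 gland and again drops the second gland. The mean of 6 comparisons (1) became 0 with RLE size factors, TMM on coding genes or the replicate block, and 2 with limma. PTHrP WT against KO became 4 (DESeq2) and 5 (no filter) in tumors, and 1 and 4 in glands. PTHrP KO tumors of week 12 against 8 became 2 and 12. The cause was not tested.

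Leaving out 1 library each gave 0 to 6, 0 to 0 and 0 to 1 calls in the PTHrP WT comparisons of weeks 6, 8 and 10, 0 to 1, 0 to 0 and 0 to 4 in those of PTHrP KO at weeks 8, 10 and 12, 0 to 6 for the mean of 6, 0 to 2 between tumors and 0 to 3 between glands of the genotypes, 0 to 29 between hyperplastic tumors, 0 to 0 for the difference of tumor effects, 0 to 9 for PTHrP WT tumors of week 10 against 6, 0 to 1 for PTHrP KO tumors of week 12 against 8, and 0 to 0 for glands. In the main fit replicate numbers were not used to pair libraries, each of which came from a different mouse. Deviations of same-numbered libraries correlated over 0.1 in 3 of 15 pairs (−0.539 to 0.585), and those of other pairs in 12 of 30 (−0.585 to 0.56). The deviations of 2 glands of a group mirror each other, so these values cannot decide about pairing. The replicate block changed no other count by more than 1.5 times. Fits that leave 1 gland in a compared group take the spread from other groups, so their counts say nothing about stability. Without rRNA-rich libraries the PTHrP KO week 10, mean and gland comparisons could not be fitted. Of the alternatives for named genes, 340 kept direction and side of the threshold and 211 kept direction but no longer passed. Groups of 2 or 3 mice limit what can be called, and reads of near-identical genes limit the values of single core histone genes of all 4 classes.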
